A study of Homo sapiens with 2 samples.

Results

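The genes described here encode the U2, U4 and U5 small nuclear RNAs (snRNAs) of the major spliceosome, with their annotated pseudogene copies and 5 U6 genes. They were chosen by symbol: every gene of GENCODE release 29 whose symbol begins with RNU2-, RNU4- or RNU5, together with RNU6-1, RNU6-2, RNU6-7, RNU6-8 and RNU6-9. This gave 197 of the 57894 genes in the tables, of which 71 are U2 loci, 90 are U4 loci, 31 are U5 loci and 5 are U6 loci. Total RNA was sequenced from HEK293, a human embryonic kidney cell line, in 2 libraries of the parental line and 2 libraries of a derivative labelled as LARP7 knockout, clone 1-11. All 4 libraries were grown without a treatment named in the labels, and the groups differ by the genotype LARP7 knockout alone as far as the labels say. The knockout is 1 clone, so the effect of the knockout and any trait of that clone cannot be told apart. Whether both libraries of a genotype were made from independent cultures is not stated, so every p-value refers to the variation among these libraries and that variation may be technical.

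U2 snRNA pairs with the branch site of the intron. U4 is base-paired to U6 and holds it inactive until the spliceosome is activated, and U5 aligns the exon ends; U4, U6 and U5 enter the spliceosome as the tri-snRNP. U2, U4 and U5 are made by RNA polymerase II and carry a ring of Sm proteins, while U6 is made by RNA polymerase III and carries a ring of LSm proteins. LARP7 binds the 7SK RNA and also brings U6 to the C/D box ribonucleoproteins that guide its modification.

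The U4 family rests on a pair of nearly identical genes, shown here because their reads can be separated only where they differ. Both lie on the minus strand of GRCh38 chromosome 12, at chr12:120291763-120291903 for RNU4-2 (ENSG00000202538) and chr12:120293097-120293237 for RNU4-1 (ENSG00000200795), 1193 bases apart and outside other annotated genes. The sequences are those of the GENCODE transcripts, written as DNA from 5′ to 3′, and capitals mark the bases that differ between the copies.
RNU4-2: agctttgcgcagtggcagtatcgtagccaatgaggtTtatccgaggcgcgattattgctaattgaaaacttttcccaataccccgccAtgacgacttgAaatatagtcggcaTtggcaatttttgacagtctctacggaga
RNU4-1: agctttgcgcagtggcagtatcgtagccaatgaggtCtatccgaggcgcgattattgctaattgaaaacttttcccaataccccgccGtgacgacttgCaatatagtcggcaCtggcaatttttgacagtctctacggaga
Over 141 bases they differ at 4 positions, counted from 1 at the 5′ end of the RNA: T37C, A88G, A99C and T113C, with the RNU4-2 base first.

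For U2 the copy that held the reads and the copy listed at 0 are shown together. RNU2-2P (ENSG00000222328) is at chr11:62841619-62841809 on the minus strand, within an exon of the protein-coding gene WDR74 on the same strand. RNU2-1 (ENSG00000274585) is at chr17:43233787-43233977 on the minus strand and has 10 identical snRNA entries in the annotation. Capitals mark GTAGTA, the stretch that pairs with the branch site, and ATTTTTG, the Sm site.
RNU2-2P: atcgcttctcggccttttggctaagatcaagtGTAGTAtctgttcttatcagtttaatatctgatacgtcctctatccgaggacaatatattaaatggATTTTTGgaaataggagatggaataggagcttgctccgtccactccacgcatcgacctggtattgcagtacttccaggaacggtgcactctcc
RNU2-1: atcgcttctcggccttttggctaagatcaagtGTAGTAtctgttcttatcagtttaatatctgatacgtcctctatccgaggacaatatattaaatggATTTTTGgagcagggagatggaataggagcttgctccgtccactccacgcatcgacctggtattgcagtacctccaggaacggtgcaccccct
They differ at 8 of 191 positions, with the RNU2-1 base first: G108A, C109A, A110T, G111A, C170T, C187T, C189T and T191C.

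The U5 family has several distinct genes. RNU5A-1 (ENSG00000199568) and RNU5B-1 (ENSG00000200156) lie 8510 bases apart on the plus strand of chromosome 15, RNU5A-1 within an intron of PARP16 on the opposite strand, and RNU5D-1 (ENSG00000200169) lies on the minus strand of chromosome 1, 9152 bases from RNU5F-1. RNU5B-1 differs from RNU5A-1 at 7 of 116 positions and RNU5D-1 at 21. Of the U6 genes, RNU6-1 (ENSG00000206625) is on chromosome 15, in an intron of AC009292.2 on the opposite strand, and RNU6-8 (ENSG00000202337) is on chromosome 14. These differ at 1 of 107 positions. RNU6-2 and RNU6-9 are identical to RNU6-1, and RNU6-7 is identical to RNU6-8.

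The libraries held 18483220 and 12851942 estimated reads (parental replicates 1 and 2) and 16838501 and 16218587 (knockout replicates 1 and 2). LARP7 itself stood at 59.8 and 46.5 CPM (normalised reads, with TMM-scaled library sizes) in parental and 36.1 and 31.9 in knockout libraries, a log2 change of -0.65 that did not pass edgeR's quasi-likelihood test (adjusted p = 0.135). The labels do not say which part of the gene was altered. The 7SK RNA was at 5572 and 5481 CPM in parental and at 169 and 205 in knockout libraries. Of 18484 genes tested by edgeR, 61 rose and 93 fell in the knockout at an adjusted p under 0.05. Parental replicate 2 stood apart in its small RNA content: small RNAs other than 7SK made up 1.82% of its reads, against 0.882% in parental replicate 1 and 0.814% and 0.956% in the knockout libraries. Among markers, the 7 of HEK293 summed to 585 to 638 CPM, most of it VIM. PAX2, LHX1 and KRT8 were low, at 1.14 to 5.62 CPM, while KRT18 was at 10.2 to 19.1 and NEFL at 82.7 to 97.5. NEFM was at 49.4 and 73.6 CPM in parental and 7.76 and 8.58 in knockout libraries. The 14 markers of blood, endothelial, fibroblast and liver cells summed to 7.22 to 9.40 CPM, most of it COL1A1. Of these, PECAM1, CDH5, COL1A2 and TTR were at 0. In bulk RNA, fewer cells holding an RNA and less of it per cell cannot be told apart.

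Summed over all their loci, U4 and U5 reads were lower in both knockout libraries than in both parental libraries. U2 reads, nearly all of them on RNU2-2P, were not. U4 stood at 864 and 1977 CPM in parental and at 504 and 710 in knockout libraries, a mean of 1421 ± 787 against 607 ± 146 (SD, n = 2 each), or 2.34-fold lower. The U5 sum was 50.6 and 155.8 CPM in parental and 27.2 and 38.0 in knockout libraries, a mean of 103 ± 74.4 against 32.6 ± 7.63, or 3.17-fold lower. In both families the groups did not overlap, but the 2 parental libraries lay further apart than the lower parental library lay from the knockout: parental replicate 2 was 2.29 times replicate 1 for U4 and 3.08 times for U5. U2 stood at 85.6 and 122.9 CPM in parental and at 87.2 and 112.6 in knockout libraries, which overlap, with a log2 ratio of the means of -0.06. Without parental replicate 2 the log2 ratio was -0.51 for U4 and -0.63 for U5, in place of -1.23 and -1.66. The sums carry no test, since they are scores over chosen genes.

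**Figure D1:**
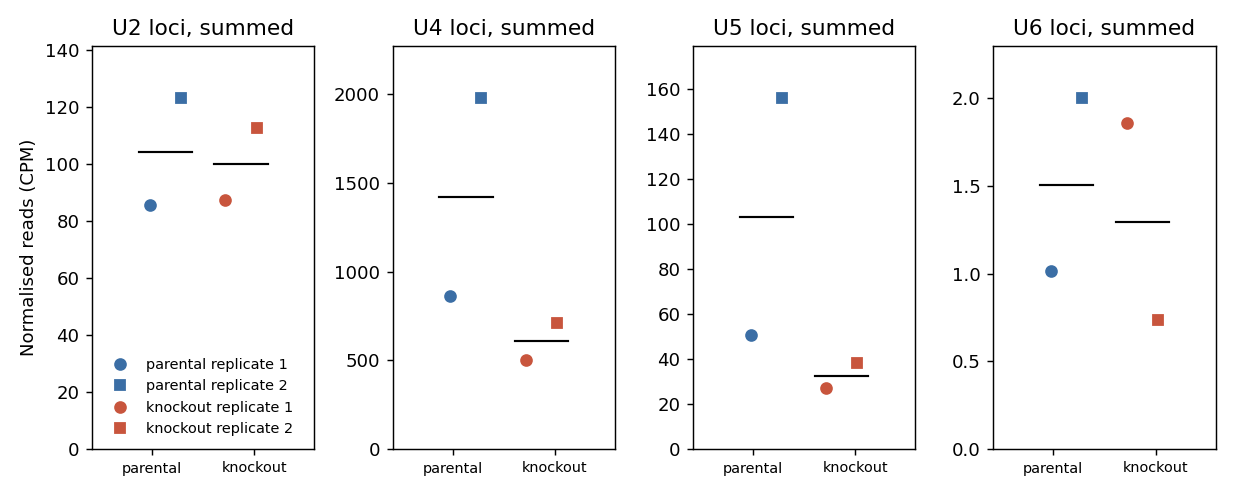
Normalised reads (CPM, TMM-scaled, linear axis from 0) summed over the loci of each family; circles and squares are replicates 1 and 2, blue parental and red knockout, and black lines are group means. Both knockout libraries lie below both parental libraries for U4 (504 and 710 against 864 and 1977) and for U5, and the groups overlap for U2 and U6.

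The same sums as estimated reads were 15207, 24903, 8631 and 11995 for U4, in the order parental replicates 1 and 2 and knockout replicates 1 and 2. U5 held 890, 1962, 466 and 642 reads and U2 1506, 1548, 1494 and 1903. Relative to U2, which shares a library with them, U4 gave 10.1 and 16.1 reads per U2 read in parental and 5.78 and 6.30 in knockout libraries. For U5 these ratios were 0.591 and 1.27 against 0.312 and 0.337, and U5 reads per U4 read were 0.0585 and 0.0788 against 0.0540 and 0.0535. All 3 ratios were lower in both knockout libraries. The U4 and U5 ratios to U2 restate that the U2 sum did not share their lower values. That sum was 97.7% to 98.9% RNU2-2P, and RNU2-1 was listed at 0 in all 4 libraries. It therefore does not give the level of U2 snRNA as a whole.

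The deposited TPM values, which divide reads by the effective length and scale each library to the same total, gave a different picture for U2. Its summed TPM was 1873 and 1811 in parental and 2597 and 3124 in knockout libraries, higher in the knockout without overlap. The median tested gene was itself higher by 0.30 on the log2(TPM + 1) scale, and 52.1% of the tested genes had knockout TPM above parental without overlap, against 5.7% below. The effective length the authors assigned to RNU2-2P was 32.5 and 38.4 bases in parental and 28.6 and 29.9 bases in knockout libraries, so the same reads gave more TPM in the knockout. With the effective length as an offset in edgeR the log2 change of RNU2-2P was 0.21, with an adjusted p of 0.710. For U4 the summed TPM was 27687 and 44150 in parental and 20338 and 28145 in knockout libraries, which overlap. U5 TPM was 2188 and 4946 against 1388 and 1980, without overlap. In summed TPM U4 was the highest of the 3 families in each library, and U5 exceeded U2 in the parental but not in the knockout libraries. This order cannot be read as family abundance. RNU2-1 was listed at 0, and TPM at these loci rests on short effective lengths, 15.9 to 17.8 bases for RNU5A-1.

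Denominators made of small RNAs were also used, since the small RNA content of the libraries differed. Per 100 reads of snoRNA and small Cajal body RNA genes, U4 gave 36.5 and 58.3 reads in parental and 25.1 and 28.0 in knockout libraries. U5 gave 2.14 and 4.59 against 1.36 and 1.498, and U2 gave 3.61 and 3.62 against 4.35 and 4.44. As a share of all small RNA reads other than 7SK, U4 was 9.33% and 10.7% in parental and 6.30% and 7.73% in knockout libraries, U5 0.546% and 0.839% against 0.340% and 0.414%, and U2 0.924% and 0.662% against 1.09% and 1.23%. On both scales U4 and U5 were lower and U2 higher in the knockout without overlap. The snoRNA sum was itself lower in the knockout, at 1988 and 2945 against 1408 and 1893 CPM, and the small Cajal body RNA sum higher, at 380 and 447 against 596 and 641, and their part in these ratios was not tested.

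**Figure D2:**
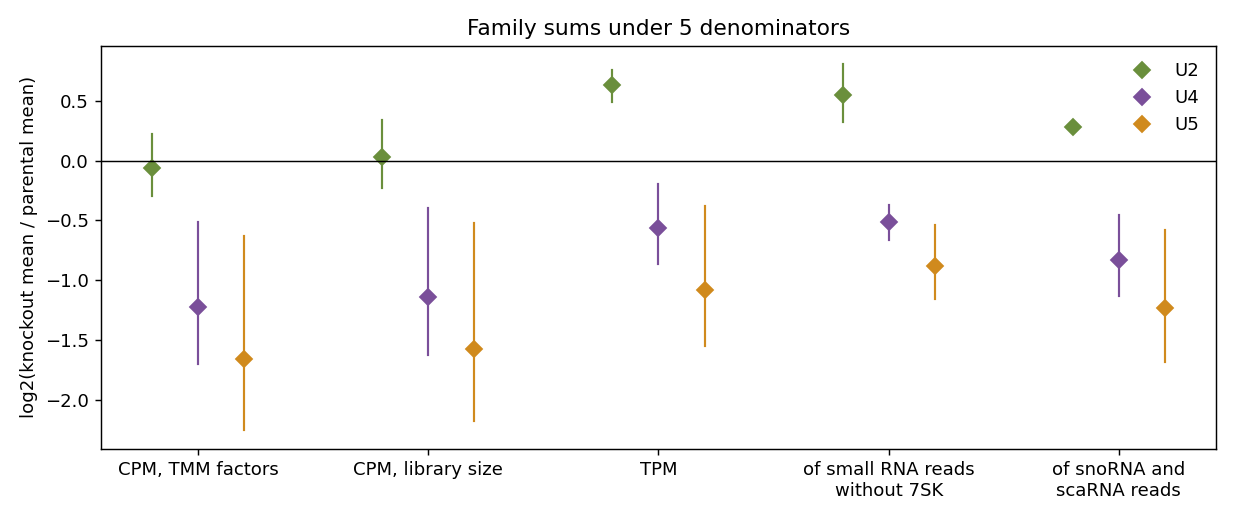
The log2 ratio of the knockout mean to the parental mean for the U2, U4 and U5 sums under 5 denominators (diamonds), with a vertical line from the lowest to the highest value when each library is left out in turn. U4 and U5 lie below 0 under all 5, from -0.51 to -1.23 for U4 and from -0.88 to -1.66 for U5, and U2 lies at -0.06 in CPM and 0.63 in TPM.

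Other spliceosomal RNAs moved with parental replicate 2 as well. The U1 loci summed to 3983 and 10698 CPM in parental and 2990 and 3504 in knockout libraries, and the 4 RNAs of the minor spliceosome to 17.7 and 53.7 against 11.5 and 14.4. The median difference between transcript length and effective length, which follows the fragment length, was 217 and 207 bases in parental and 233 and 226 in knockout libraries. Shorter fragments thus went with the parental group and most with replicate 2, and their part in the lower U4 and U5 values was not tested.

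At single loci, 14 of the 197 passed the filter on low counts and none was called. By edgeR's quasi-likelihood test with Benjamini-Hochberg adjustment over all genes, 0 members passed at an adjusted p under 0.05, where 0.833% of all tested genes did. At an unadjusted p under 0.05 there were 10 members, 2 of U4 and 8 of U5, against 14.3% of all tested genes. DESeq2 called 1 member, RNU5E-1, against 2.45% of its tested genes, and limma voom called 0, against 0.812%. In the same 10 loci both knockout libraries lay below both parental libraries in CPM, as 22.7% of all tested genes did, and no member lay above without overlap, as 23.6% did. In TPM 7 members lay below without overlap, beside 5.7% of all tested genes, 2 lay above (RNU2-2P and RNU2-63P), beside 52.1%, and 5 overlapped.

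RNU4-2 had 596 and 1370 CPM in parental and 361 and 510 in knockout libraries. Its log2 change was -1.17 (SE 0.33, edgeR adjusted p = 0.169). RNU4-1 had 267 and 607 CPM in parental and 142 and 199 in knockout libraries, a log2 change of -1.36 (SE 0.33, edgeR adjusted p = 0.127). Neither passed the test, and in both the gap between the parental libraries exceeded the difference between the group means. Without parental replicate 2 the log2 changes were -0.46 and -0.65. They were -1.66 and -1.83 without parental replicate 1, -0.94 and -1.13 without knockout replicate 1, and -1.44 and -1.61 without knockout replicate 2. Each of these fits leaves 1 library in a group and takes its spread from the other group alone. Their p-values are therefore not given.

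The balance between these U4 copies differed less between replicates than between groups. RNU4-2 held 69.0% of U4 reads in parental replicate 1 (Wilson 95% interval 68.3 to 69.8) and 69.3% in replicate 2 (68.7 to 69.8). In the knockout it held 71.6% (70.7 to 72.6) and 71.9% (71.1 to 72.7). The group means were 69.2% ± 0.17 and 71.8% ± 0.21 (SD, n = 2 each), a difference of 2.62 percentage points, and no interval of one group reached into the other. An exact permutation test of 2 against 2 libraries, two-sided, cannot go below p = 0.333. The intervals cover counting error only, and the share depends on how reads common to both copies were divided. RNU4-1 held nearly all other U4 reads, 30.9% and 30.7% in parental against 28.3% and 28.0% in knockout libraries.

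**Figure D3:**
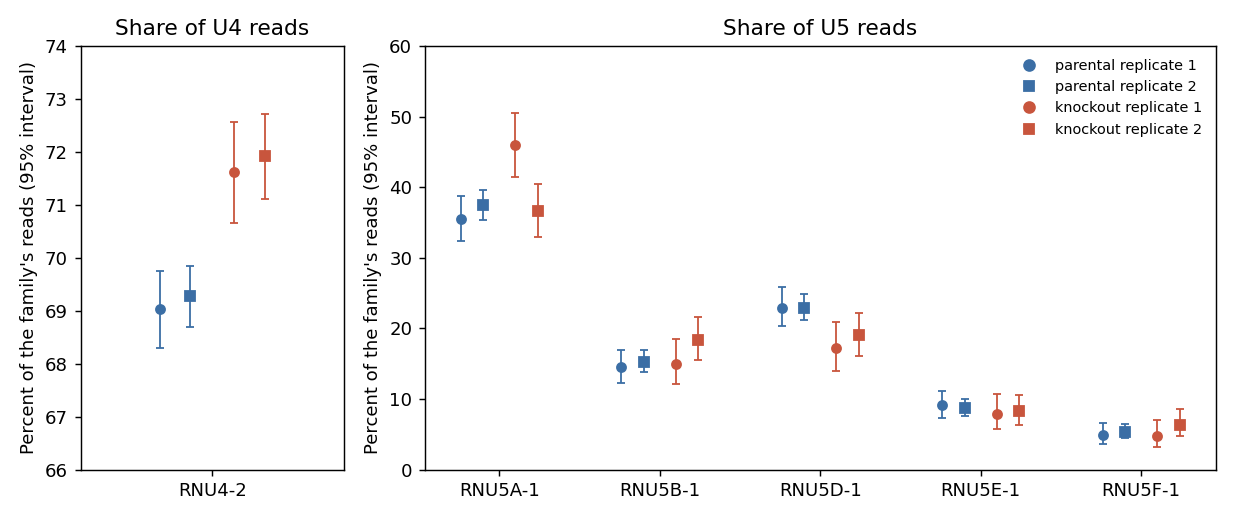
Share of U4 reads from RNU4-2 (left, axis from 66% to 74%) and of U5 reads from 5 U5 genes (right, axis from 0%), per library with Wilson 95% intervals; blue is parental, red is knockout, circles and squares are replicates 1 and 2. The RNU4-2 share is 69.0% and 69.3% in parental and 71.6% and 71.9% in knockout libraries. RNU5D-1 is lower in both knockout libraries, but only its intervals in parental replicate 2 and knockout replicate 1 stay apart.

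Among the U5 genes, RNU5A-1 carried the most reads, at 18.0 and 58.3 CPM in parental and 12.5 and 13.9 in knockout libraries. Its log2 change was -1.52 (SE 0.45, edgeR adjusted p = 0.178). RNU5D-1 had 11.6 and 35.7 CPM in parental and 4.67 and 7.22 in knockout libraries, a log2 change of -1.98 (SE 0.48, edgeR adjusted p = 0.124). RNU5B-1 was at 7.33 and 23.8 CPM against 4.09 and 6.98, and RNU5E-1, which overlaps an exon of AL021155.2 on the same strand, at 4.60 and 13.6 against 2.16 and 3.14. RNU5F-1, in an intron of ARMH1 on the opposite strand, was the lowest of the 5, with 44 and 105 estimated reads against 22 and 41. In all 5 the knockout libraries were the lower, parental replicate 2 was the highest, and none passed the test. Log2 changes of the last 3 were -1.48, -1.76 and -1.52, with edgeR adjusted p of 0.245, 0.173 and 0.298.

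RNU5D-1 made up 22.9% of U5 reads in both parental libraries and 17.2% and 19.0% in the knockout libraries, lower without overlap. The Wilson intervals were 20.3 to 25.8 and 21.1 to 24.8 in parental and 14.0 to 20.9 and 16.2 to 22.2 in knockout libraries. Only those of parental replicate 2 and knockout replicate 1 stay apart. In every other parental and knockout pair the intervals overlap, and overlap alone does not place a difference within counting error. RNU5A-1 held 35.5% and 37.4% of U5 reads in parental and 45.9% and 36.6% in knockout libraries, which overlap. RNU5E-1 held 9.10% and 8.72% in parental and 7.94% and 8.26% in knockout libraries, and RNU5E-4P 3.15% and 3.21% against 2.15% and 2.96%, both lower without overlap but by less than their Wilson intervals. The shares of RNU5B-1, RNU5F-1, RNU5A-8P and RNU5E-6P overlapped between the groups.

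Leaving out 1 library changed the calls at the U5 loci. Each of these fits leaves 1 library in a group and takes its spread from the other group alone. The calls therefore cannot single out a locus, and they show only how far the outcome depends on the libraries kept. Without parental replicate 1, all 8 tested U5 loci and both U4 loci passed edgeR's test, where 5.7% of all tested genes fell. Without parental replicate 2, where 4.94% fell, log2 changes of the 8 tested U5 loci ran from -1.07 (RNU5A-8P) to -0.41 (RNU5B-1). RNU5D-1 was at -0.97 and RNU5A-1 at -0.45. Without knockout replicate 1 (0.645% fell) the U5 calls were RNU5A-1 and RNU5D-1, and without knockout replicate 2 (0.675% fell) they were RNU5A-1, RNU5B-1, RNU5D-1 and RNU5E-1. With no filter on low counts the same 10 U4 and U5 loci passed, where 1.46% of 31419 genes fell.

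**Figure D4:**
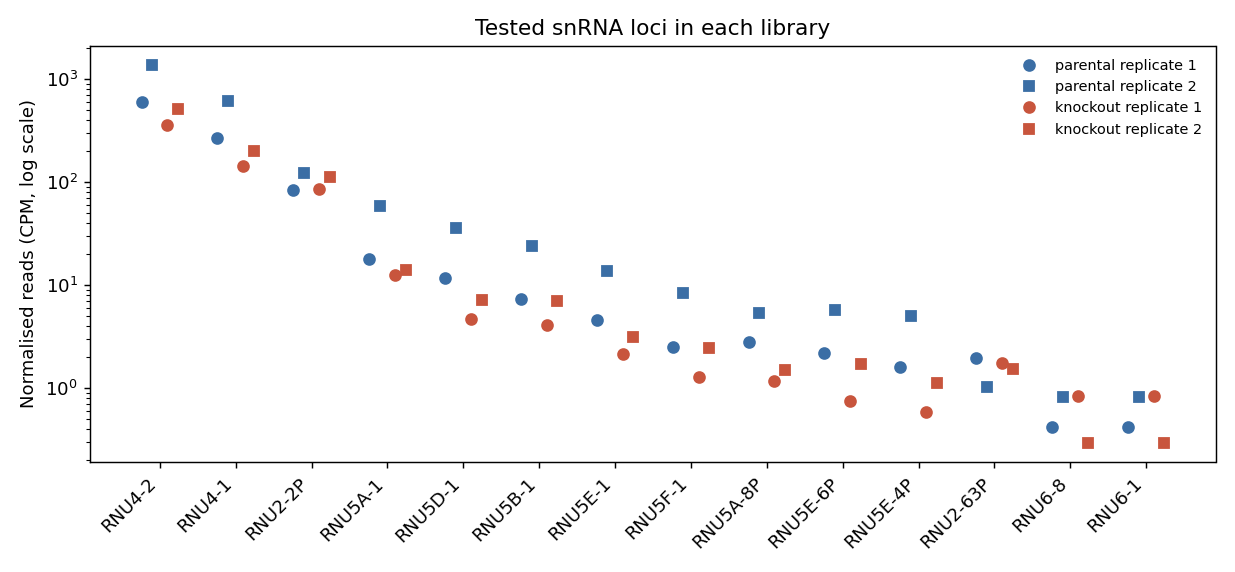
Normalised reads (CPM, TMM-scaled, log axis) of the 14 tested loci in each library, ordered by total reads; blue is parental, red is knockout, circles and squares are replicates 1 and 2. In the 10 U4 and U5 loci both red points lie below both blue points, with parental replicate 2 highest, and RNU2-2P, RNU2-63P, RNU6-1 and RNU6-8 overlap.

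Nearly all U2 reads lay on RNU2-2P, which held 97.7% to 98.9% of the family in each library. It stood at 83.6 and 121.5 CPM in parental and 85.2 and 111.1 in knockout libraries, a log2 change of -0.06 (SE 0.20, edgeR adjusted p = 0.927). Its surrounding gene WDR74 was at 18.9 and 19.1 CPM in parental and 21.9 and 21.3 in knockout libraries, and whether reads of that exon reached RNU2-2P was not tested. RNU2-1, the copy at the chromosome 17 array, was listed at 0 in all 4 libraries. The 21 annotated entries placed in the U2 family by Rfam and without an RNU2 symbol held 38, 38.1, 22 and 35 reads. RNU2-2P was thus the only named functional U2 gene with reads in these tables, and the level of the array copies cannot be read from them.

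The 5 U6 genes held few reads: 17.9 and 25.2 in parental and 31.8 and 12.4 in knockout libraries, for 1.02, 2.00, 1.86 and 0.74 CPM. The groups overlapped, and in reads the knockout replicates lay on either side of both parental values. RNU6-1 and RNU6-8 were each estimated at 7.41 and 10.3 reads in parental and 14.2 and 4.94 in knockout libraries, and both had a log2 change of -0.07 (edgeR adjusted p = 0.984). RNU6-2, RNU6-7 and RNU6-9 were each estimated at 0.857 to 1.55 reads. Copies with the same sequence therefore carried different estimates, and the 5 loci cannot be read singly. RNU6-3P, RNU6-4P, RNU6-5P and RNU6-6P are also identical to RNU6-1 but lie outside the 5 genes. The sum can therefore miss reads of that sequence. The other 1271 RNU6 loci, these identical copies among them, together held 45.1 and 69.8 reads in parental and 75.2 and 94.6 in knockout libraries.

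Most pseudogene loci were listed at 0. Over all 197 members, 164 were listed at 0 in every library, 18 held 1 to 9 reads in all and 15 held at least 10. U2 had 8 loci with reads, U4 had 12, U5 had 8 and U6 had 5. The named functional genes held 99.89% to 99.96% of U4 reads and 87.0% to 90.8% of U5 reads, so U5 was the family with the largest pseudogene share.

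That U5 remainder came from 3 loci on chromosome 1, which passed the filter. RNU5A-8P, in an intron of HHAT on the opposite strand, had 2.78 and 5.32 CPM in parental and 1.17 and 1.48 in knockout libraries. RNU5E-6P had 2.20 and 5.72 against 0.75 and 1.70, from 38.8 and 72.1 estimated reads against 12.8 and 28.7. These are not whole counts, and whether this locus shares reads with other transcripts was not tested. Genes that overlap it are not reported here. RNU5E-4P, 1536 bases from RNU5E-1, had 1.59 and 5.00 against 0.58 and 1.12. Their log2 changes of -1.60, -1.66 and -1.92 (edgeR adjusted p = 0.178, 0.266 and 0.244) lay within the range of the 5 U5 genes, -1.48 to -1.98. All 3 hold GCCTTTTAC, the letters of the U5 loop that contacts the exon ends.

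Outside U5, RNU2-63P on chromosome 2 had 34 and 13 reads in parental and 30 and 26 in knockout libraries, with a log2 change of 0.13 (edgeR adjusted p = 0.944). RNU4-25P held 16, 3, 8 and 7 reads and did not pass the filter. It overlaps an exon of AC103705.1 on the same strand and an exon of PVT1 on the opposite strand. Whether reads of those exons reached it was not tested. RNU2-68P and RNU4-52P held 3 reads each over the 4 libraries. RNU2-63P and RNU4-25P had their lowest counts in parental replicate 2, the library in which U4 and U5 were highest.

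Pseudogenes were also set against the functional genes by sequence. Identity was taken as 100% less the edit distance to the nearest functional copy, as a share of the longer sequence. RNU5A-8P, RNU5E-6P and RNU5E-4P were 82.8%, 83.6% and 87.5% identical to RNU5A-1, and the 23 U5 loci at 0 ranged from 43.1% to 83.8%. In U4, RNU4-13P at 93.6% identity was listed at 0, RNU4-7P at the same identity held 1 read, and RNU4-25P, with 34 reads, was 53.9% identical. In U2, RNU2-59P at 95.3% held 1 read and RNU2-63P, with 103 reads, was 77.3% identical.

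**Figure D5:**
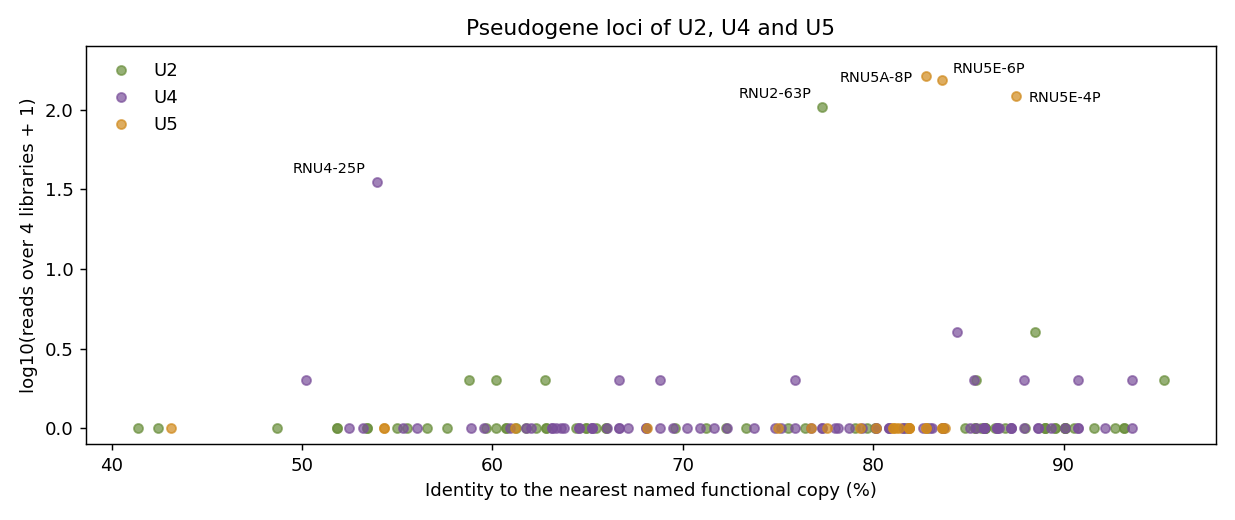
Reads over 4 libraries, as log10(reads + 1), against identity to the nearest named functional copy for the pseudogene loci of U2, U4 and U5; each point is a locus. The 5 labelled loci hold at least 10 reads, and loci above 90% identity hold at most 1 read.

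The loop GCCTTTTAC was searched on the transcript strand of each snRNA entry. It was present in 14 of the 31 U5 loci, in 8 of the 8 with reads and in 6 of the 23 listed at 0. Among 1900 snRNA entries of any family these 14 were the only ones to hold it, or 0.737%. Shares over all entries include the family itself, here and for the other motifs. The Sm-site spelling ATTTTTTG was also in 14 U5 loci, 7 of the 8 with reads and 7 of the 23 at 0, and in 1.32% of all entries. In U2, GTAGTA was in 36 of 71 loci, 31 of the 63 at 0 among them, and in 3.58% of all entries. ATTTTTG was in 29 U2 and 37 U4 loci and in 6.11% of all entries, and ACAGAGA, which pairs with the 5′ splice site, in 5 of 5 U6 genes and 37.4% of all entries. These are matches of letters in the annotated window and describe no site.

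The proteins that bind, make and assemble these RNAs were not called as changed. In 6 lists of 106 genes, all of them tested, 0 passed edgeR's test at an adjusted p under 0.05, against 0.833% of all tested genes. DESeq2 called 0, against 2.45%, and limma voom 0, against 0.812%. At shares this low, a count of 0 does not show that these genes were unchanged, and LARP7 itself was not called. An unadjusted edgeR p under 0.05 was reached by 6, against 14.3% of all tested genes. Among 20 U2 snRNP proteins the median log2 change was -0.03. SF3A2, a subunit of the U2 particle, stood at 26.7 and 27.2 CPM in parental and 18.5 and 15.6 in knockout libraries (log2 change -0.66, edgeR adjusted p = 0.145). U2AF1, which reads the 3′ splice site, was at -0.27 and the U2 protein SNRPB2 at 0.40. The 18 proteins of U4/U6 and U5 had a median of -0.02, with the U4/U6 protein PRPF4 at 0.42, the U4-binding SNU13 at -0.23 and the U5 core protein PRPF8 at -0.19. The 14 Sm and LSm ring proteins had a median of -0.03, with LSM4 at -0.29, SNRPD2 at -0.25 and LSM5 at 0.16. The median over all tested genes was 0.00.

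Genes of snRNA transcription and 3′ processing, 28 in number, had a median log2 change of 0.08. INTS6 and INTS1, subunits of the Integrator complex that cuts snRNA precursors, were at 131.0 and 114 against 160 and 186 CPM (log2 change 0.50, edgeR adjusted p = 0.155) and at 110 and 107 against 84.4 and 76.0 (-0.43, edgeR adjusted p = 0.173). ZC3H8, a subunit of the little elongation complex that serves snRNA genes, was at 37.3 and 36.8 against 27.1 and 23.7 (-0.54, edgeR adjusted p = 0.169). The 21 export, assembly and import genes had a median of 0.11, with the export adaptor PHAX at 0.30, SNUPN, which brings the cap into the nucleus, at 0.37, and SMN2 at -0.21, which is uncertain because SMN1 is a near-identical copy. The 5 genes of U6 maturation had a median of -0.10, with LARP7 as above, the 7SK capping enzyme MEPCE at 0.31 and the La protein SSB at 0.16.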

How the data were processed

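The authors deposited Salmon-type tables for total RNA of the 4 libraries, with the estimated count of reads, the TPM and the effective length of each transcript, per the file headers. The submitters' processing notes name Salmon 1.6 and STAR 2.5.3a beside cutadapt 1.6, and edgeR 3.24.3, with build hg38. The role of each tool, the gene models and any strand option are not stated here, so genes that overlap on either strand cannot be told apart. The source field of the knockout sample reads wildtype; the title and genotype field were used.

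Transcripts were joined to GENCODE release 29 by identifier without version (197318 matched, 684 not, holding 0.0631% to 0.0711% of reads). Estimated counts were summed per gene, rounded, and tested in R 4.3.3 by the quasi-likelihood test of edgeR 4.0.16, after filterByExpr and with TMM factors, with Benjamini-Hochberg adjustment over all genes tested. limma 3.58.1 (voom) and DESeq2 1.42.0 were alternatives, as were RLE factors, library size alone, no filter, at least 30 reads in 2 libraries, an effective length offset, the replicate number as a block, and leaving out each library. The fit was tested on simulated data. CPM uses TMM-scaled library sizes; log2(TPM + 1) was used for the TPM shift.

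Named loci are the 14 functional genes chosen by symbol, every other tested member, the further loci with the most reads in each family, and in each protein list the 3 genes with the smallest p, beside loci named for their identity after values were seen. The members and lists were chosen with earlier results of these data known. Sequences come from the GENCODE transcripts; those of the U5 and U6 genes are not reported here.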

Additional observations from a re-analysis of the deposited data

How the results depend on the processing

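All 119 alternative values of the U4 and U5 loci were negative. These are refits of the same loci on the same 4 libraries, so they are not independent and add no support to the main fit. Of 46 for the U2 and U6 loci, 25 were negative. Members called by edgeR were 0, but 10 with no filter, 10 with the replicate block, 1 by DESeq2, and 3 to 10 when a library was left out. Genes called were 154, but 831 with no filter, 90 with the effective length offset, 1656 with the replicate block (768 rose, 888 fell), 411 by DESeq2, and 200 to 2265 when a library was left out. The replicate numbers share only a number: deviations of same-numbered libraries correlated at 0.13, and with 2 pairs the block is no evidence of pairing. Library size alone moved the median gene by 0.10 (log2) and called 106 higher and 82 lower genes. The U2 sum moved from -0.06 to 0.63 in TPM and 0.55 as a share of small RNA reads. Left-out libraries gave -0.30 to 0.22 for U2, -1.70 to -0.51 for U4, -2.26 to -0.63 for U5 and -1.03 to 0.35 for U6. The share of RNU4-2 differed by 2.48 to 2.77 points when a library was left out; this alternative and the snoRNA denominator were chosen after seeing the data.

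RNU2-2P turned positive at 0.029 with library size alone and 0.21 with the length offset, and ranged from -0.31 to 0.23 over the left-out libraries. RNU2-63P ranged from -0.23 to 0.66 over them. RNU6-1 and RNU6-8 turned to 0.016 with library size alone and each ranged from -0.97 to 0.48 over the left-out libraries. The cause of these changes was not tested. A group left with 1 library was taken to vary like the other.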
